A study of Bos taurus with 4 samples.

Results

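Mid-width H3K27me3 domains without H3K4me3 are stretches of 10 kb to under 50 kb that carried H3K27me3 peaks in both libraries of bovine embryonic stem cells and no H3K4me3 peak shared by both libraries of that mark. They were selected on the measured peak positions of the 4 CUT&RUN lists, on chromosomes 1 to 22 and 24 to 29. Shared H3K27me3 peaks formed 10254 regions there, and 3293 of them (32.1%) met these criteria. On all sequences of the assembly there were 15091 shared H3K27me3 regions of any width, with or without H3K4me3. The mid-width domains covered 63.7 Mb, which was 34.4% of the 185 Mb under shared H3K27me3 regions on these chromosomes. The cells, NBFR-bESCs, were grown on mouse feeder cells in N2B27 base medium with 20 ng/mL FGF2, the tankyrase inhibitor IWR-1 at 2.5 µM and 1% BSA, and feeder cells were depleted before the assay. On these chromosomes the H3K27me3 lists held 15046 and 14221 peaks over 171 and 185 Mb and the H3K4me3 lists 21407 and 19839 peaks over 58.7 and 58.8 Mb, in replicates 1 and 2. There were 2 libraries for each mark, from about 50000 cells each, and the labels name a single female blastocyst of day 7 as the origin of the cells. The paper instead describes a pair of independent lines, so whether the replicates are separate lines cannot be told from the labels, and none of the libraries was treated. The spread between replicates may therefore be technical, and no test over the 2 libraries a mark was run. All comparisons below are descriptions, with the value of each library where it has its own.

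H3K27me3 is written by Polycomb repressive complex 2, whose catalytic subunit in stem cells is mostly EZH2, and it marks genes that are kept silent. The complex can bind the mark it has made through its EED subunit, so that H3K27me3 spreads from a starting site into neighbouring chromatin as a broad domain. H3K4me3 sits at promoters, mostly of active genes. In embryonic stem cells many promoters of developmental regulators carry both marks and are known as bivalent, whereas H3K27me3 without H3K4me3 is known over genes and intergenic stretches that are silent and not poised in this way. The peak lists hold positions of the ARS-UCD1.2 assembly, and no gene annotation of that assembly was used here, so domains are named by position and not by gene.

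The width and the missing H3K4me3 chose the domains and are given as a description. Of 4799 H3K27me3 regions of this width, 3293 overlapped no shared H3K4me3 region, or 68.6%, and 1506 overlapped at least 1. The 95% Wilson interval of this share, from 67.3% to 69.9%, covers counting error alone. It takes regions as independent, which neighbouring regions are not. The share was 68.7% of the 4834 regions under 10 kb and 59.1% of the 621 regions of 50 kb or more. The domains had a median width of 16.0 kb, with a middle range from 12.2 to 23.4 kb, and 1423 of them (43.2%) were narrower than 15 kb. The mid-width regions with H3K4me3 had a median of 16.3 kb. At the lower limit, 76 domains were 10.0 kb wide, with a median H3K27me3 score per kb of 26.1 in replicate 1 and 35.5 in replicate 2. The 64 regions without H3K4me3 just outside it, at 9.8 kb, had medians of 25.7 and 39.1. At the upper limit, 2 domains were 49.8 kb wide and no region without H3K4me3 was 50.0 kb wide.

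**Figure D1:**
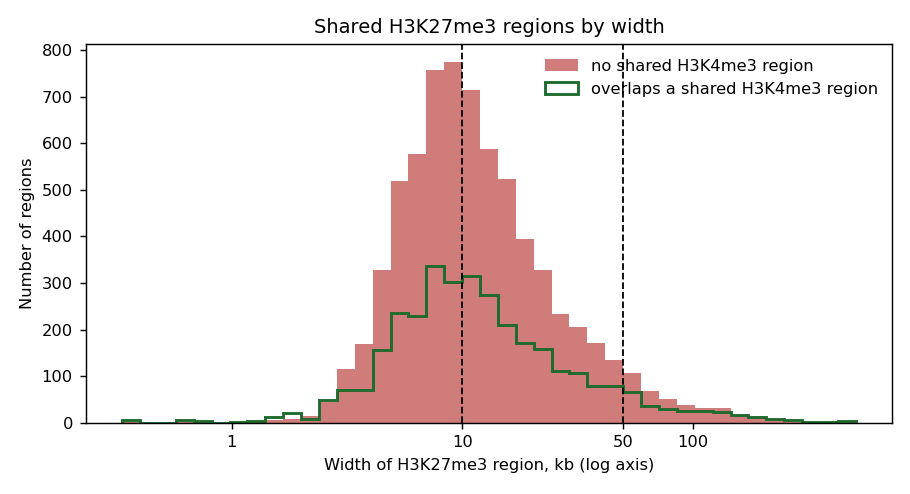
Number of shared H3K27me3 regions on chromosomes 1 to 22 and 24 to 29 by width in kb (log axis), filled for regions without a shared H3K4me3 region and outlined for regions that overlap one. The dashed lines are the limits of 10 and 50 kb, between which lie 3293 regions without H3K4me3 and 1506 with it.

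Each peak of the authors' lists has a score in whole numbers that no source explains. It was divided by the length of the peaks in kb and compared within a library only. The mid-width domains scored lower per kb than regions of the same width that carried H3K4me3. Their median score per kb in replicate 1 was 29.4, and the middle 50% of them lay between 24.8 and 36.0. The regions with H3K4me3 had a median of 43.7 there, and their middle 50% lay between 34.0 and 55.5. In replicate 2 the medians were 43.4 and 63.7, and the middle 50% lay between 36.25 and 53.0 and between 49.7 and 79.7. The regions with H3K4me3 thus had the higher median in both libraries, while the distributions overlapped. With the scale of the score unknown, only this order is read from it. Of the domains, 10.2% in replicate 1 and 11.5% in replicate 2 stood above the median of the regions with H3K4me3. Regions under 10 kb without H3K4me3 had lower medians, 26.5 and 38.9, and regions of 50 kb or more without it had higher ones, 42.7 and 62.5.

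Wider domains scored higher per kb. Domains of 10 to under 15 kb had medians of 26.9 in replicate 1 and 39.0 in replicate 2, and the 167 domains of 40 to under 50 kb had 37.1 and 54.3. In each of 5 width classes the regions with H3K4me3 had the higher median in both libraries, with 38.8 and 57.8 in the narrowest class and 53.4 and 76.5 in the widest. Domains with a high score per kb in one library tended to have a high one in the other, with exceptions. Across the 3293 domains, Pearson's r between the libraries on the log2 scale was 0.87 and Spearman's rho was 0.84. These points share their position in the genome and neighbouring domains are not independent.

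**Figure D2:**
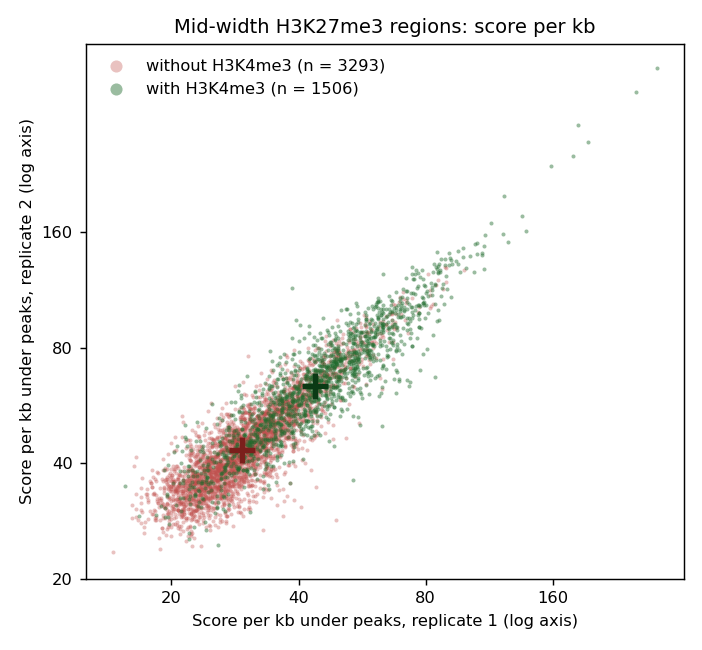
H3K27me3 score per kb under peaks in replicate 1 (x axis) and replicate 2 (y axis), both on log axes, for H3K27me3 regions of 10 to under 50 kb without H3K4me3 and with it. Each point is a region and the crosses are the medians, at 29.4 and 43.4 for the domains without H3K4me3 and at 43.7 and 63.7 for those with it.

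The 5 domains with the highest score per kb were ranked by the lower of their percentiles in the libraries, and 4 of them lay on chromosome 18. The first, from 63586001 to 63614600, held 1 peak in each library. It was 27.8 kb wide with a score of 2478 in replicate 1, and 28.6 kb wide with a score of 3698 in replicate 2. Its score per kb, 89.1 and 129, stood at or above that of 98.9% and 99.0% of all shared H3K27me3 regions. Next to it, the domain from 63543001 to 63582200 scored 85.5 and 120 per kb. These neighbours were 3.8 kb apart and the nearest shared H3K4me3 region was 30.0 kb and 13.8 kb away, respectively. The domain from 63412201 to 63430000 had scores per kb of 98.6 and 127, and replicate 1 gave it 2 peaks where replicate 2 gave it 1. The remaining domain on this chromosome, from 50070001 to 50111200, had rank 2 of the 5. It was a single peak with a score of 5352 in replicate 2 and 3 peaks in replicate 1. On chromosome 25, the domain from 35534201 to 35549600 had the same limits in both libraries, with 89.2 and 119 per kb. All 5 stood at or above 98.4% of the shared H3K27me3 regions in both libraries, and none held an H3K4me3 peak of either library.

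The libraries often divided a domain differently. Replicate 1 divided the domains into 4801 peaks and replicate 2 into 4014. Peaks covered a median of 86.9% of a domain in replicate 1 and 95.7% in replicate 2. In all, 74.7% of the bases of the domains lay under peaks of both libraries. The median per domain was 75.7%, against 80.6% for regions of the same width with H3K4me3, 69.2% for regions under 10 kb without it and 91.8% for those of 50 kb or more. A single peak per library made up 1803 domains (54.8%). In these the starts differed by a median of 1000 bp and the ends by 1200 bp, both edges lay within 1 kb of each other in 25.1%, 23 had the same limits in both libraries, and the replicate 2 peak was the wider in 1107 and the replicate 1 peak in 644. Where the numbers differed, replicate 1 had more peaks in 940 domains and replicate 2 in 362.

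The 5 widest domains show this division. On chromosome 9, the domain from 102995201 to 103045000 was 4 peaks of 7.8, 18.2, 11.2 and 6.8 kb in replicate 1 and 2 peaks of 14.8 and 33.8 kb in replicate 2. On chromosome 29, the domain from 33855001 to 33904800 held 2 peaks in each library, which replicate 1 placed as 4.0 and 42.8 kb and replicate 2 as 23.4 and 23.6 kb, so that the break fell at different places. It also held an H3K4me3 peak of 0.8 kb in replicate 1, with a score of 34. On chromosome 3, the domain from 17132601 to 17182200 was 3 peaks in replicate 1 and 2 in replicate 2. On chromosome 17, the domain from 50391201 to 50440800 was 5 peaks in replicate 1 and 3 in replicate 2, and had the lowest score per kb of the 5, at 28.2 and 42.2. The other domain on chromosome 17, from 45368601 to 45418200, was the exception. It was 1 peak in each library, of 47.2 and 47.6 kb, and had the highest score per kb of the 5, at 57.8 and 79.2. A shared H3K4me3 region of 4.6 kb ended 5.4 kb before its start.

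H3K4me3 peaks of a single library had not removed a region, and some lay in the domains. Of the 3293 domains, 104 (3.16%) had an H3K4me3 peak in 1 library only, 66 of them in replicate 1 and 38 in replicate 2. Dropping peaks below the median score of their list left 2994 domains, of which 5.14% had such a peak. That value counts other H3K4me3 peaks, since no single-library peak in the 3293 domains reached the median of its list. A peak can also become single when its partner in the other library is dropped. Another 11 had peaks of both libraries that did not overlap each other. The share with a peak in 1 library was 2.74% for regions under 10 kb without H3K4me3 and 10.9% for the wider regions of 50 kb or more. The domains made up 2.62% of the chromosome length and held 2.79% of the replicate 1 and 3.82% of the replicate 2 H3K4me3 peaks that were not shared. The 83 in replicate 1 had a median score of 41, none reached the median of their list, 186, and the highest was 115. The 55 in replicate 2 had a median of 49 and a highest score of 104, against a list median of 206. Their scores were close to those of all H3K4me3 peaks found in 1 library on these chromosomes, with medians of 42 and 46. Most domains therefore had no H3K4me3 peak in either list, which at an unknown read depth does not show that the mark was absent.

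The nearest shared H3K4me3 region lay at a median of 73.6 kb from a domain, with a middle range from 25.4 to 178 kb. This median was 126 kb when peaks below the median score of their list were dropped. The median was 57.9 kb for regions under 10 kb without H3K4me3 and 90.4 kb for those of 50 kb or more. An H3K4me3 region lay within 5 kb of 219 domains (6.65%) and within 50 kb of 39.9%, and it was farther than 500 kb from 149 domains (4.52%). Median score per kb lay between 28.1 and 30.4 in replicate 1 and between 41.2 and 45.3 in replicate 2 over 6 distance classes. The 206 domains under 5 kb from H3K4me3 had medians of 29.2 and 45.3 in replicates 1 and 2, and the 149 domains at 500 kb or more had 30.4 and 45.

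In 11 domains the H3K4me3 region touched the edge without overlapping it. One of them, on chromosome 7, reached from 18360801 to 18377800, and the H3K4me3 region began at the next base and was 1.0 kb wide. Replicate 2 alone brought the domain to this edge, since its peak ended at 18377800 and that of replicate 1 at 18369800. On chromosome 8 the domain from 111438601 to 111462400 touched an H3K4me3 region of 1.8 kb, and on chromosome 10 the domain from 25437401 to 25453800 touched one of 1.4 kb. There too the edge was that of a replicate 2 peak, while the replicate 1 peaks ended before it, at 111461200 and at 25450400. At the other extreme, the domain on chromosome 1 from 104471201 to 104483600 was 1542 kb from the nearest shared H3K4me3 region. It was covered for 33.9% in replicate 1, by peaks of 2.4 and 1.8 kb, and whole in replicate 2. The domain on chromosome 16 from 16635401 to 16648400 was 1490 kb away and matched better, since its replicate 1 peak was 13.0 kb wide and its replicate 2 peak 12 kb. The nearest other H3K27me3 region was 4047 kb from it. The domain on chromosome 15 from 78896801 to 78907400 was 1208 kb from H3K4me3, and replicate 1 covered 37.7% of it.

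Most mid-width domains had a close H3K27me3 neighbour. The nearest other shared H3K27me3 region was at a median of 2.2 kb, and it lay within 10 kb of 2617 domains (79.5%). Among regions of the same width with H3K4me3 the median was 17.4 kb and 42.4% had a neighbour within 10 kb. The share was 63.1% for regions under 10 kb without H3K4me3 and 96.5% for those of 50 kb or more. In every width class from 10 to 50 kb the domains without H3K4me3 had the higher share, with 72.6% against 30.2% in the narrowest and 94.6% against 75% in the widest. The share moved with how finely the lists divide H3K27me3. When regions up to 5 kb apart were joined first, 1693 domains were found in place of 3293, and 37.6% had a neighbour within 10 kb, against 16.2% of those with H3K4me3. The domains thus had the higher share in both cases, at a level that depended on the joining.

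**Figure D3:**
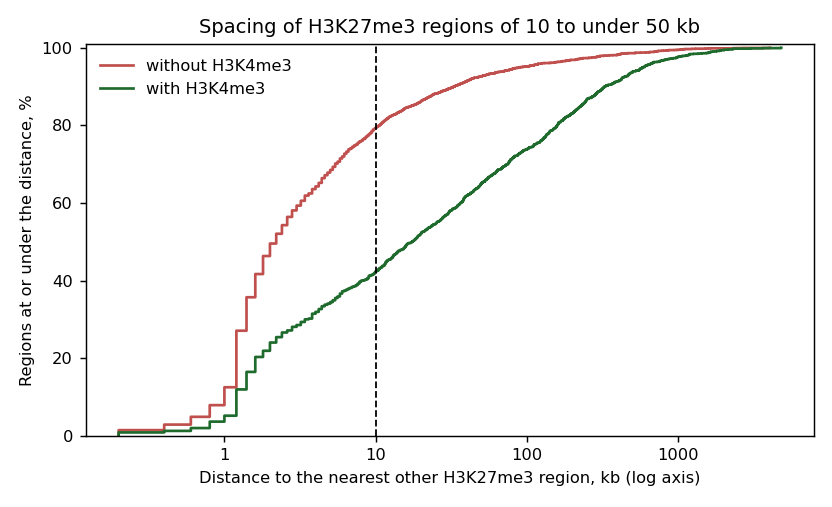
Share of H3K27me3 regions of 10 to under 50 kb (y axis, %) whose nearest other shared H3K27me3 region lies at or under a given distance in kb (x axis, log), without and with H3K4me3. At the dashed line of 10 kb the curves stand at 79.5% and 42.4%.

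Linking all shared H3K27me3 regions up to 10 kb apart placed the domains in 1825 chains, counting a lone domain as a chain. The median chain of a domain spanned 68.8 kb, and 59.8% of domains were in a chain of 50 kb or more, against 24.2% of the mid-width regions with H3K4me3. Of the domains, 676 (20.5%) were linked to no other region, 1588 (48.2%) were in chains in which no H3K27me3 region overlapped H3K4me3 and 1029 (31.2%) were in chains that included a region with H3K4me3. In 32 of the 1588 a shared H3K4me3 region lay in a gap of the chain, and the chains of the other 1556 held none within their span. The lone domains were narrower, with a median of 13.8 kb, and lower in score per kb, at 26.2 and 38.4 in replicates 1 and 2. Domains in chains with no H3K4me3 in their span had medians of 16.4 kb, 29.1 and 43.1, and those in chains with H3K4me3 had 17.6 kb, 32.0 and 46.8. The share of a domain under peaks of both libraries followed the same order over these classes, with medians of 66.7%, 75.8% and 81.2%. Score per kb rose with width and the covered share tended to, and the classes were not compared at equal width. These 31.2% depended on the length of the link, with 19.5% at gaps of up to 5 kb and 62.3% at gaps of up to 50 kb, and fell to 8.25% when peaks below the median score of their list were dropped.

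Chains with 5 or more domains numbered 119 and held 25% of all domains. The chain with most lay on chromosome 26 from 47539201 to 48548200, with 20 domains among 28 H3K27me3 regions, 1 of which overlapped H3K4me3, and H3K27me3 over 92.9% of its 1009 kb. Another on this chromosome, from 45441801 to 46286200, held 17 domains among 28 regions, 2 of them with H3K4me3. With no shared H3K4me3 region in the span, the chain with most domains lay on chromosome 20 from 68573801 to 69037200, with 14 domains among 20 regions, and the next on chromosome 27 from 32483001 to 32818000, with 12 among 20. The longest run of domains in which neighbours were under 100 kb apart included the chain of chromosome 20. It held 34 domains from 68481801 to 69605600 over 1124 kb, with 14 narrower and 2 wider H3K27me3 regions between them and no shared H3K4me3 region. Its domains were 10.0 to 48.0 kb wide, with a median of 18.0 kb. Their score per kb ranged from 19.5 to 46.1 in replicate 1, with a median of 33.4, and from 34.6 to 72.9 in replicate 2, with a median of 45.9.

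Domains were unevenly spread over the chromosomes. Chromosome 25 had the highest density, with 201 domains or 4.75 per Mb, followed by chromosome 18 with 2.92, chromosome 19 with 2.60, chromosome 26 with 2.21 and chromosome 27 with 2.17 per Mb. These 5 held 23.4% of the domains on 11% of the length. The median of the 28 chromosomes was 1.31 per Mb, and chromosome 12 was lowest with 37 domains or 0.425 per Mb. With the criteria applied to replicate 1 alone, chromosome 25 had 4.32 and chromosome 12 had 0.333 per Mb, and with replicate 2 alone 4.82 and 0.379 per Mb. Chromosomes 25 and 12 thus differed by far more than the replicates did. Chromosomes 26 and 27, neighbours in this order, differed by less than the replicates did on chromosome 26, which had 2.67 per Mb in replicate 1 alone and 2.39 in replicate 2 alone. Chromosome 21, with 2.06 per Mb, passed chromosome 27 in each replicate alone, at 2.16 against 1.97 and 2.25 against 2.14. Which chromosomes formed the 5 densest thus depended on the libraries used. Chromosomes dense in domains also tended to be dense in shared H3K4me3 regions, with Pearson's r of 0.73 and Spearman's rho of 0.56 over 28 chromosomes that share their length in both measures, and 0.66 and 0.51 without chromosome 25. There were exceptions. Chromosome 20 had 2.07 domains per Mb with 4.32 H3K4me3 regions per Mb, and chromosome 11 had 0.879 with 8.66. On chromosome 27, 87.5% of the mid-width H3K27me3 regions were without H3K4me3, the highest share, and on chromosome 12 it was 50.0%, the lowest.

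**Figure D4:**
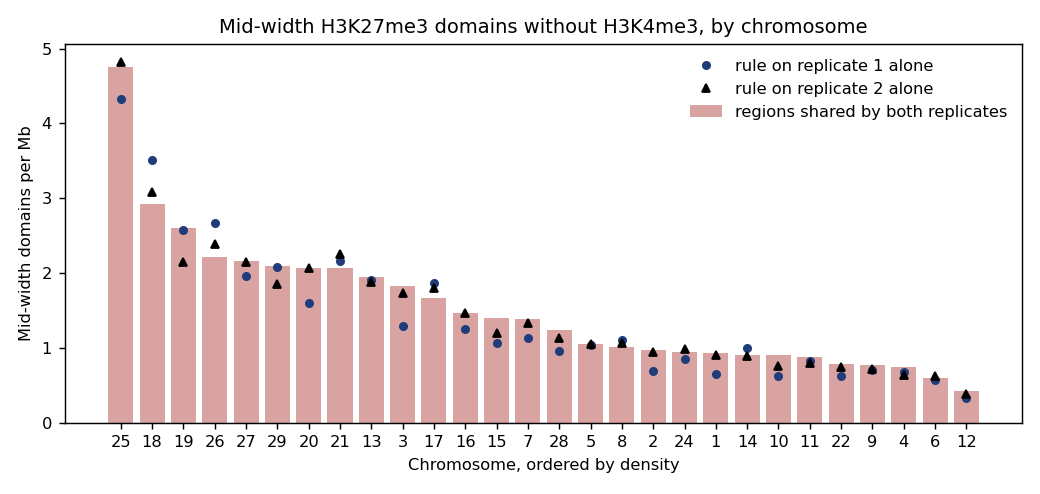
Mid-width H3K27me3 domains without H3K4me3 per Mb (y axis) on 28 chromosomes ordered by density (x axis). Bars are the domains from both replicates, and circles and triangles give the same criteria applied to replicate 1 or replicate 2 alone, with chromosome 25 highest and chromosome 12 lowest in each.

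Within chromosomes the domains gathered toward the end of the sequence. The last 10% of chromosome length held 892 domains (27.1%), and a further 14.3% lay in the 10% before it, while the part from 30% to 40% held the fewest, 3.28%. Mid-width regions with H3K4me3 had 15.4% in the last 10%, and shared H3K4me3 regions had 15.1%. For regions without H3K4me3, the share was 21.0% under 10 kb and 39.0% at 50 kb or more. In replicate 1 alone 30.4% of domains were in the last 10%, against 16.8% of the regions with H3K4me3, and in replicate 2 alone 28.8% against 14.5%. On 23 of 28 chromosomes the last 10% held over 10% of the domains. The share reached 67.5% on chromosome 9 and 65.1% on chromosome 20, but was 1.31% on chromosome 7 and 1.06% on chromosome 10. The 892 domains near the end had the higher median score per kb in both libraries, with 30.1 and 44.0 against 29.1 and 43.2 for the others, and were wider, with 17.0 against 15.8 kb. Score per kb also rose with width, and these groups were not compared at equal width.

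In windows of 5 Mb, 59 of 502 windows held 50% of the domains and 146 held none. The window with most, on chromosome 20 from 65000001 to 70000000, held 71 domains and 12 shared H3K4me3 regions. The next held 53 domains and 21 H3K4me3 regions on chromosome 26 from 45000001 to 50000000, and 47 domains and 24 H3K4me3 regions on chromosome 25 from 5000001 to 10000000. The window of chromosome 20 is near the end of a chromosome of 72.0 Mb and that of chromosome 26 near the end of one of 52.0 Mb, whereas that of chromosome 25 is in the first part of its 42.3 Mb.

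**Figure D5:**
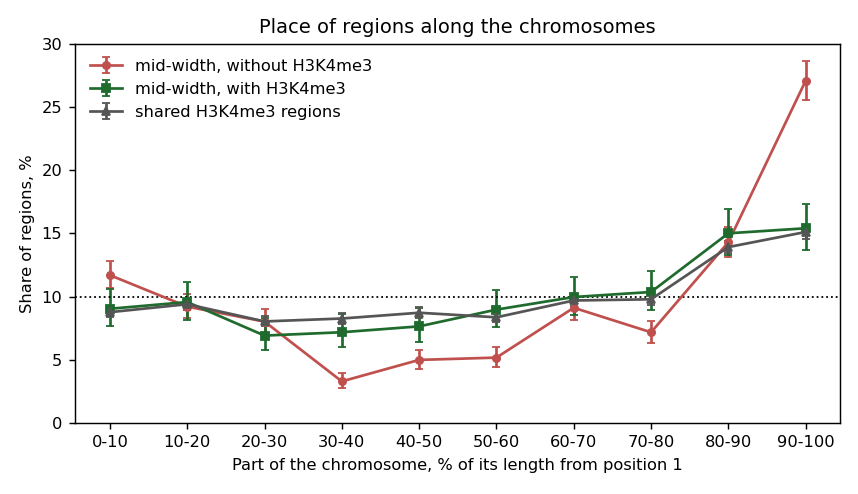
Share of regions (y axis, %) in each 10% of chromosome length (x axis) for mid-width H3K27me3 regions without and with H3K4me3 and for shared H3K4me3 regions, with 95% Wilson intervals that cover counting error only. The intervals take regions as independent, which neighbouring regions are not. The dotted line is an even spread of 10%, and the domains without H3K4me3 reach 27.1% in the last part.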

How the data were processed

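The 4 deposited lists are peaks of 4 CUT&RUN libraries, 2 per mark. The authors trimmed reads, mapped them to ARS-UCD1.2 with BWA (0.7.17-r1188 in the submitters' processing notes), removed duplicates, and ran epic2 on each library in windows of 200 bp, allowing 5 gaps for H3K27me3 and 1 for H3K4me3. No control library is stated. In the deposited files the position columns give whole windows, and the score is a whole number that nothing names. Read depth is unknown, so a peak that is missing was only not listed.

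Here, a peak counted as shared if at least 1 bp of it lay under a peak of the other replicate, and shared peaks that overlapped or touched were merged. The end of the last peak in the 4 lists stood for the chromosome end. The domains described singly are the 5 widest, the 5 highest in score per kb by their lower percentile, the 3 farthest from and the 3 nearest to H3K4me3 (ties by chromosome and start), the longest run and the 3 fullest windows of 5 Mb. The chains, and the chromosomes named as exceptions, were picked after their values were seen. The domains, rules and comparisons were chosen with earlier results of these data known. Genes and sequences were not analysed here, because the gene table at hand is of another assembly, ARS-UCD2.0. The steps were checked on made-up lists (721 of 721 planted domains found) and with bedtools 2.31.1 (the same 3293 domains). Calculations ran in Python 3.11.15 with pandas 2.3.3, numpy 2.4.6 and scipy 1.17.1, and plots in matplotlib 3.10.9.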

Additional observations from a re-analysis of the deposited data

Results flagged for a closer look

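The criteria for the domains leave out chromosome 23, chromosome X and the unplaced sequences, and the lists have peaks there too. Applied there, the same criteria gave 128 H3K27me3 regions of 10 to under 50 kb without H3K4me3 on chromosome 23, 1842 on chromosome X and 110 on unplaced sequences. The density was 2.44 per Mb on chromosome 23 and 13.3 per Mb on chromosome X, against a highest value of 4.75 per Mb on the 28 chromosomes of the report. Of the mid-width H3K27me3 regions, 54.5% were without H3K4me3 on chromosome 23, 91.3% on chromosome X and 62.1% on unplaced sequences. The highest such share on the 28 chromosomes was 87.5%. An H3K4me3 peak of a single replicate lay in 45 of the 128 regions on chromosome 23 (35.2%), in 17 on chromosome X (0.923%) and in 4 on unplaced sequences (3.64%), against 3.16% of the domains of the report. These regions are listed here because the comparisons of the report do not use them, and causes of these differences were not tested.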

How the results depend on the processing

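No paired analysis was possible because no result comes from a test between groups that share replicate numbers. Of 104 values under other settings 64 moved. The other 40 stayed within the spread between replicates or, for the number of domains, within 1.5 times the reported count. Only the score ratios given below could be labelled as reversed, by crossing 1, and 0 of them did. The number of domains was 2412 at widths of 12 to under 40 kb, 2994 with peaks at or above the median score and 2944 with a 50% overlap. The linking of regions and its gap lengths of 5 and 50 kb were chosen after seeing the data. The score ratio below divides the median score per kb of mid-width regions with H3K4me3 by that of the domains and, as the scale of the score is unknown, is read only as above or below 1. Joining H3K27me3 regions up to 5 kb apart gave 1693 domains, 56.4% of mid-width regions without H3K4me3, 3.84% with a single-replicate H3K4me3 peak, a median of 62.8 kb to H3K4me3, 64.1% of bases in both libraries, 37.6% within 10 kb of another region, a highest to median chromosome ratio of 2.95, 20.6% in the last 10%, score ratios of 1.53 and 1.52, and 10.9% linked to H3K4me3. With peaks at or above the median score these were 78.5% without H3K4me3, 126 kb, 58.1% within 10 kb and 8.25% linked. The chromosome ratio was then 4.20 and the score ratios were 1.43 and 1.39. The share with a single-replicate peak was then 5.14%, which counts other H3K4me3 peaks than the main 3.16%. Counting a peak as shared only where 50% or more of it was overlapped gave 68.0%, 80.4 kb, 86.0% of bases in both libraries, 85.1% within 10 kb, a chromosome ratio of 4.35, 29.8% in the last 10%, score ratios of 1.42 and 1.38, and 34.2% linked. Peaks of either replicate gave 66.9%, 62.6 kb, 86.6% within 10 kb and 40.3% linked. Barring H3K4me3 peaks of either replicate gave 66.2%, 75.5 kb, score ratios of 1.47 and 1.44, and 33.5% linked, and barring shared H3K4me3 within 2 kb gave 66.1%, 79.0 kb, 1.46, 1.43 and 32.9%. With chromosome 23 added, the values were 68.0%, 4.36%, 71.2 kb, a chromosome ratio of 3.44 and a replicate 2 score ratio of 1.45. Widths of 12 to under 40 kb gave 75 kb and a chromosome ratio of 3.82. Gaps of 5 and 50 kb linked 19.5% and 62.3%. Using 1 replicate of each mark alone (without replicate 1, or without replicate 2) gave 3019 to 3205 domains, 70.1% to 70.6% without H3K4me3, 71.2 to 72.2 kb, 87.2% to 91.2% within 10 kb, chromosome ratios of 3.97 to 4.13, 28.8% to 30.4% in the last 10%, 38.3% to 39.9% linked, and score ratios of 1.44 in replicate 1 and 1.46 in replicate 2. In each of these settings apart from the gap lengths, which leave both shares as they are, the domains exceeded mid-width regions with H3K4me3 in the share within 10 kb of another H3K27me3 region and in the last 10%. The cause of these shifts was not tested. Read depth is unknown, the score is unnamed, and no test over the 2 libraries per mark was run, so weak or unlisted marks cannot be told apart from absent ones.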
